A study of Mus musculus with 14 samples.

Results

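Mitochondrial ribosomal proteins are encoded in the nucleus, made in the cytosol and imported into mitochondria, where they join mitochondrial rRNAs to form the small and the large subunit of the mitochondrial ribosome. That ribosome translates the few mRNAs encoded by mitochondrial DNA, all of which are for subunits of the oxidative phosphorylation complexes. Some of its proteins have a bacterial counterpart, and others are specific to mitochondria. The genes described here are the rows of the deposited gene table whose symbol starts with Mrpl (large subunit) or Mrps (small subunit) followed by a digit, 76 of 22295 rows. Mrpl39 was left out because it lies next to the targeted miR-155 locus. Its level was 7.51 ± 0.727 RPKM (SD) in 4 wild-type libraries and 1.40 ± 0.301 RPKM in 5 miR-155[-/-] libraries. The rule used gene names and no measured value.

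The cells were mouse splenic B cells, isolated with a negative selection kit. They were stimulated in culture for 96 h, with 5 µg/ml of LPS plus 10 ng/ml of IL-4, a treatment that drives B cells to divide, switch class and start to become plasma cells. All 14 libraries had this same treatment. They came from wild-type mice (WT, n = 4), from PU.1[155-/155-] mice, in which the binding site for miR-155 in the gene of the transcription factor PU.1 is mutated (n = 5), and from miR-155[-/-] mice, which lack the microRNA (n = 5). The comparisons ask what the loss of miR-155 changes in activated B cells and which of these changes are also seen when only its action on PU.1 is removed. Both mutants were compared with the same WT libraries, so the mutants' differences from WT share their controls and are given side by side only.

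Levels are in RPKM as deposited, that is reads scaled to gene length and to the depth of the library. Differences are in log2(RPKM + 0.5) and are given with their standard error, and for genes of low level they are smaller than the change in RPKM itself. A gene was tested when it reached 1 RPKM in at least 4 libraries, which 9627 rows and 74 of the 76 genes did. "Higher", "lower", "rose" and "fell" are used for an adjusted p under 0.05 in limma, with Benjamini-Hochberg adjustment over all 9627 genes. The p-values set each difference against the spread between libraries of the same genotype. That spread is pooled over the 3 genotypes and drawn towards that of other genes of similar level.

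The libraries held 31.5 to 52.4 M reads. Sfpi1, which encodes PU.1, stood at 12 ± 1.54 RPKM in WT, 23.7 ± 2.04 in PU.1[155-/155-] and 16.7 ± 1.11 in miR-155[-/-]. The summed level of 8 B cell markers was 1510 to 1750 RPKM in WT, 1560 to 1810 in PU.1[155-/155-] and 1370 to 1480 in miR-155[-/-], where every library lay below every WT library and 4 of the 8 were lower than in WT. Of 5 dendritic cell markers only Flt3 and Zbtb46 passed the filter, both higher in miR-155[-/-], and that list summed to 15.7 to 20.1 RPKM in WT, 25.3 to 32.0 in PU.1[155-/155-] and 23.7 to 30.4 in miR-155[-/-]. Of the markers of macrophages, neutrophils, NK cells and erythroid cells none passed the filter, and no such list summed to more than 1.15 RPKM. Of 7 T cell markers Thy1 and Lck passed the filter while no genotype's mean of Cd3d, Cd3e or Cd3g was above 0.0481 RPKM. That list summed to 51.6 to 54.9 RPKM in WT, 41.4 to 50 in PU.1[155-/155-] and 74.5 to 82.8 in miR-155[-/-], a sum carried by Thy1. In miR-155[-/-] Thy1 was higher than in WT (70.6 ± 3.85 against 44.9 ± 1.22 RPKM) and Lck was lower (5.33 ± 0.634 against 7.64 ± 0.615). Both were lower in PU.1[155-/155-]. Plasma cell markers summed to 382 to 463 RPKM in WT, 178 to 286 in PU.1[155-/155-] and 210 to 342 in miR-155[-/-], a sum carried by Igj and Xbp1. Igj had means of 282, 132 and 153 RPKM in that order and Xbp1 134, 106 and 107, both lower than WT in both mutants. Prdm1 was lower than WT only in miR-155[-/-]. Sdc1 did not pass against WT in either mutant and was higher in miR-155[-/-] than in PU.1[155-/155-]. Tnfrsf17 failed the filter. The part of these shifts in the results below was not tested. In bulk RNA, fewer cells of a type and less RNA per cell cannot be told apart.

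Single libraries stood apart from the others of their genotype in the mitochondrial ribosomal protein genes. miR-155[-/-] replicate 5 was the highest of 5 for 66 of the 74 tested genes, with a median excess of 0.22 on the log2 scale against 0.10 over all tested genes. PU.1[155-/155-] replicate 4 was the highest of 5 for 56 of them. At the other end, WT replicate 1 was the lowest of 4 for 47 genes and PU.1[155-/155-] replicate 1 the lowest of 5 for 45. The deviation of WT replicate 1 followed the GC content of transcripts, with a Spearman rho across genes of -0.59 over 73 of these genes and -0.65 over all tested genes with a transcript, where genes are not independent replicates. This was not particular to that library. In the same order, rho was -0.58 and -0.51 in miR-155[-/-] replicate 3, 0.54 and 0.53 in PU.1[155-/155-] replicate 3 and 0.32 and 0.56 in WT replicate 2. In PU.1[155-/155-] replicate 2 it was only -0.07 and -0.12. Counts of genes that passed are given below with and without single libraries.

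**Figure D1:**
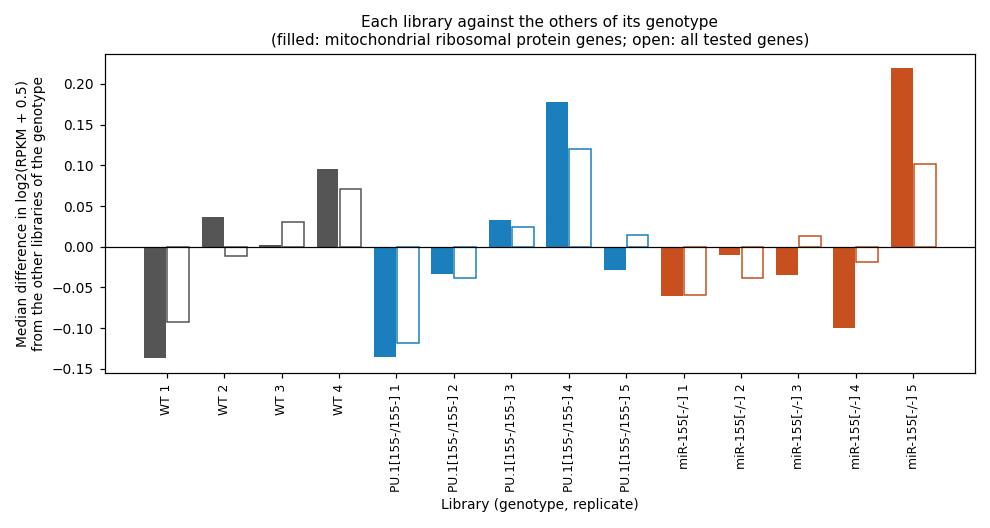
Median difference in log2(RPKM + 0.5) of each library from the mean of the other libraries of its genotype, for the 74 tested mitochondrial ribosomal protein genes (filled bars) and all 9627 tested genes (open bars). miR-155[-/-] replicate 5 sits at 0.22 for these genes and 0.10 for all genes, and WT replicate 1 at -0.14 and -0.09.

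Across the 14 libraries the genes differed widely in level. The highest mean over the 14 libraries was that of Mrps16, at 41.1 RPKM, and the next were Mrps15 at 38.1, Mrpl30 at 35.8, Mrps7 at 31.1 and Mrpl33 at 30.5 RPKM. The lowest tested genes were Mrps25 at 2.00, Mrpl47 at 2.52, Mrpl1 at 2.75, Mrps33 at 3.07 and Mrps26 at 3.08 RPKM. Within each genotype neighbours in this ranking could overlap. Mrps16 ran from 36.6 to 42.5 RPKM in WT and Mrps15 from 33.3 to 40.6. The 2 genes that failed the filter were Mrpl23, with a mean of 0.833 RPKM, and the pseudogene Mrps36-ps1, with 0.198 RPKM. How reads of near-identical copies were counted is not given here, so values of such genes are uncertain.

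Summed over the 76 genes, the level in WT was 1081 ± 65.4 RPKM (SD, n = 4), in PU.1[155-/155-] 1126 ± 81.5 and in miR-155[-/-] 946.7 ± 76.5 (n = 5 each). The miR-155[-/-] libraries held 910.7, 951.2, 920.5, 876.3 and 1075 RPKM, and the WT libraries 987.4, 1101, 1095 and 1140. On this scale the groups overlap through miR-155[-/-] replicate 5, which lies above WT replicate 1. As a share of all RPKM in a library, the same genes took 5131 to 5318 ppm in WT, 4969 to 5281 in PU.1[155-/155-] and 4420 to 4989 in miR-155[-/-]. On that scale every miR-155[-/-] library lies below every WT library, and replicate 5 overlaps the PU.1[155-/155-] libraries.

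**Figure D2:**
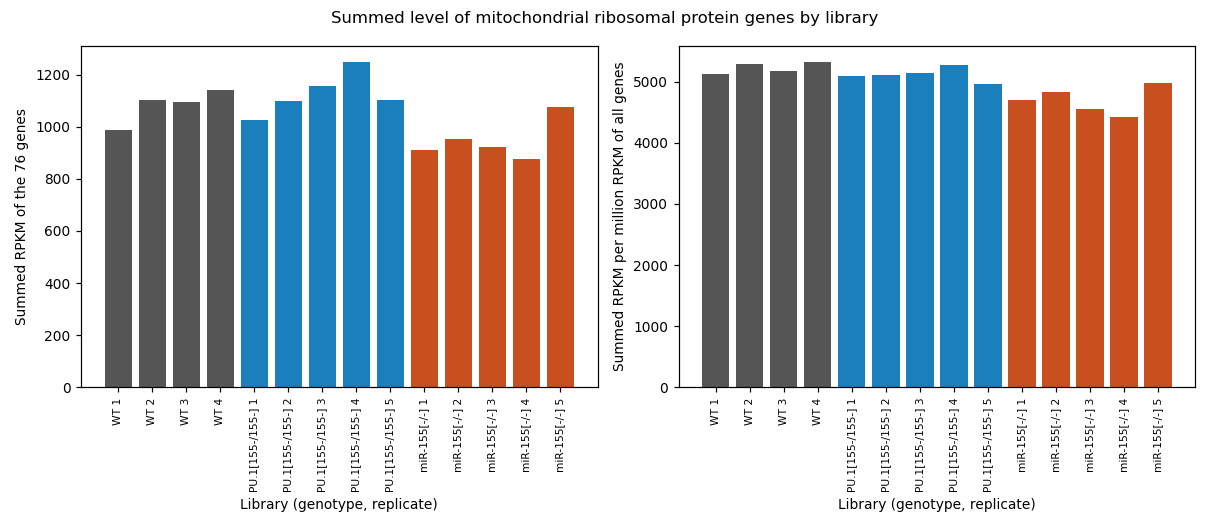
Summed RPKM of the 76 mitochondrial ribosomal protein genes in each library (left) and the same sum in ppm of all RPKM (right), coloured by genotype. In ppm, the 5 miR-155[-/-] libraries lie between 4420 and 4989 and the 4 WT libraries between 5131 and 5318.

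In miR-155[-/-] B cells many of these genes were lower than in WT, by modest amounts, and a few were higher. Of the 74 tested genes 37 were lower (50%, against 35.3% of all tested genes) and 5 were higher (6.76%, against 27.2%). The median difference was -0.19, against -0.05 over all tested genes, and 63 of the 74 differences were negative, with a range from -0.68 to 0.32. The largest falls were those of Mrpl36, Mrpl27, Mrpl50, Mrpl33 and Mrpl20, all proteins of the large subunit, and of Mrps21 of the small subunit. The genes that rose were Mrpl45, Mrpl14, Mrps6, Mrpl13 and Mrpl1.

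**Figure D3:**
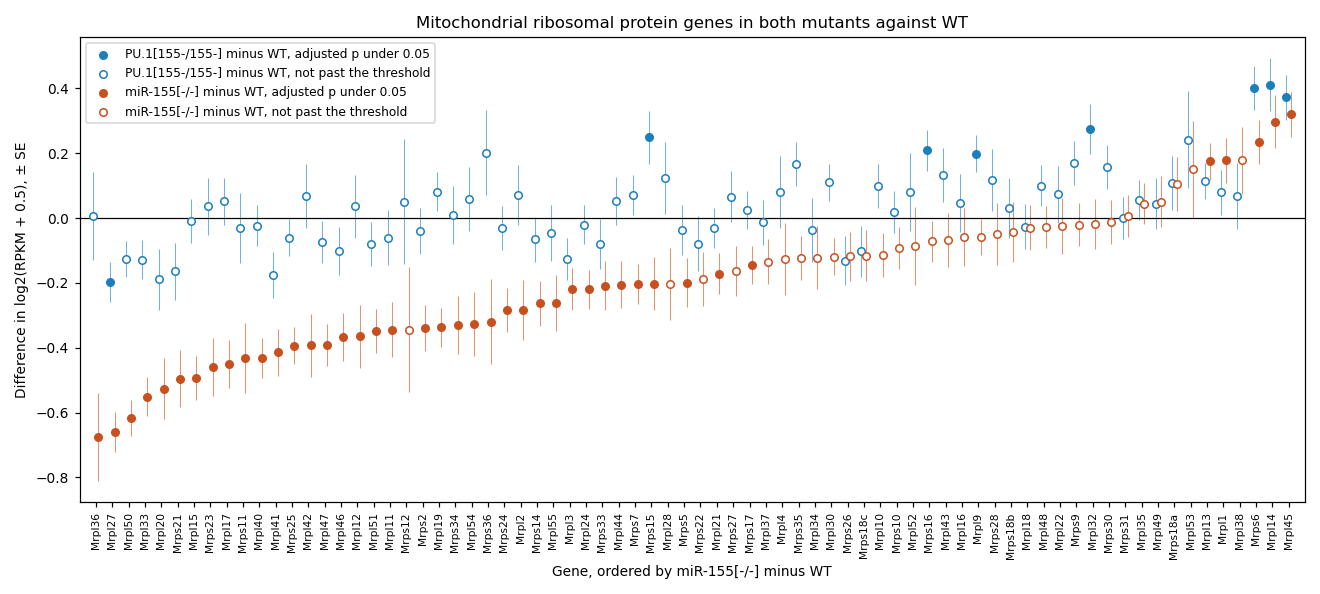
Difference from WT in log2(RPKM + 0.5), with its standard error, for the 74 tested genes, in miR-155[-/-] (orange) and PU.1[155-/155-] (blue); filled points passed an adjusted p under 0.05 in limma. The miR-155[-/-] points run from -0.68 for Mrpl36 to 0.32 for Mrpl45, with 37 filled points below 0, while 1 filled PU.1[155-/155-] point lies below 0 and 7 above it.

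Mrpl27, whose bacterial counterpart reaches the peptidyl transferase centre, was lower in both mutants. Its RPKM was 19.0, 19.4, 18.8 and 19.2 in WT, 15.8, 15.5, 15.5, 18.4 and 18.2 in PU.1[155-/155-], and 11.9, 11.5, 11.4, 11.7 and 13.1 in miR-155[-/-]. The 3 genotypes did not overlap. The difference from WT was -0.66 ± 0.06 (SE) in miR-155[-/-] (limma adjusted p = 2.63e-08) and -0.20 ± 0.06 in PU.1[155-/155-] (limma adjusted p = 0.0232). Of the 74 tested genes no other was lower in both mutants as deposited. The fall in PU.1[155-/155-] did not hold without WT replicate 2, PU.1[155-/155-] replicate 2 or PU.1[155-/155-] replicate 3, with limma adjusted p between 0.0611 and 0.0692. Its span overlaps that of Eme1, a DNA repair nuclease subunit, which moved the same way, from 6.51 ± 0.453 RPKM in WT to 4.30 ± 0.331 in miR-155[-/-], and reads of overlapping genes cannot be told apart here.

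Mrpl50, which is specific to mitochondria, separated the genotypes in the same order. It stood at 8.13, 7.82, 8.17 and 8.75 RPKM in WT, at 7.40, 7.24, 7.43, 7.61 and 7.72 in PU.1[155-/155-], and at 4.74, 4.98, 5.26, 5.24 and 5.74 in miR-155[-/-]. No 2 genotypes overlapped. The fall in miR-155[-/-] was -0.62 ± 0.06 (limma adjusted p = 1.57e-08), and the value in PU.1[155-/155-], -0.13 ± 0.06, missed the threshold (limma adjusted p = 0.0977). That smaller difference passed under the scalings that centre the libraries, as at -0.21 with median-of-ratios scaling (limma adjusted p = 0.00125). Mrpl50 also had the smallest spread within genotypes of the tested genes, a mean coefficient of variation of 4.82%.

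Mrpl33 and Mrpl36 are small proteins of the large subunit with bacterial counterparts. Mrpl33 had 34.2, 36.2, 33.4 and 39.3 RPKM in WT, 30.9, 34.4, 30.6, 33.6 and 33.7 in PU.1[155-/155-], and 25.3, 22.8, 24.8, 23.2 and 25.0 in miR-155[-/-]. Every miR-155[-/-] library lay below all the others, with a difference from WT of -0.55 ± 0.06 (limma adjusted p = 2.19e-07). Mrpl36 was more variable, with 14.3, 18.6, 20.9 and 17.0 RPKM in WT, 16.4, 17.4, 19.6, 21.1 and 14.4 in PU.1[155-/155-], and 10.1, 12.8, 9.72, 8.22 and 14.2 in miR-155[-/-]. Its fall was the largest, at -0.68 ± 0.14 (limma adjusted p = 0.000256), and its groups came close, at 14.2 RPKM in miR-155[-/-] replicate 5 and 14.3 in WT replicate 1.

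The next largest falls were in Mrpl20, Mrps21 and Mrpl15. Mrpl15 went from 7.44 ± 0.664 RPKM in WT (n = 4) to 5.13 ± 0.395 in miR-155[-/-] (n = 5), a difference of -0.49 ± 0.07, and the libraries did not overlap. Mrpl20, which helps to assemble the large subunit in bacteria, went from 30.8 ± 1.65 to 21.4 ± 3.80 RPKM, a difference of -0.53 ± 0.09. In miR-155[-/-] replicate 5, at 27.6 RPKM, it was above the other 4, which lay between 18.1 and 22.1. Mrps21 went from 26 ± 2.33 to 18.4 ± 2.75 RPKM, a difference of -0.50 ± 0.09.

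**Figure D4:**
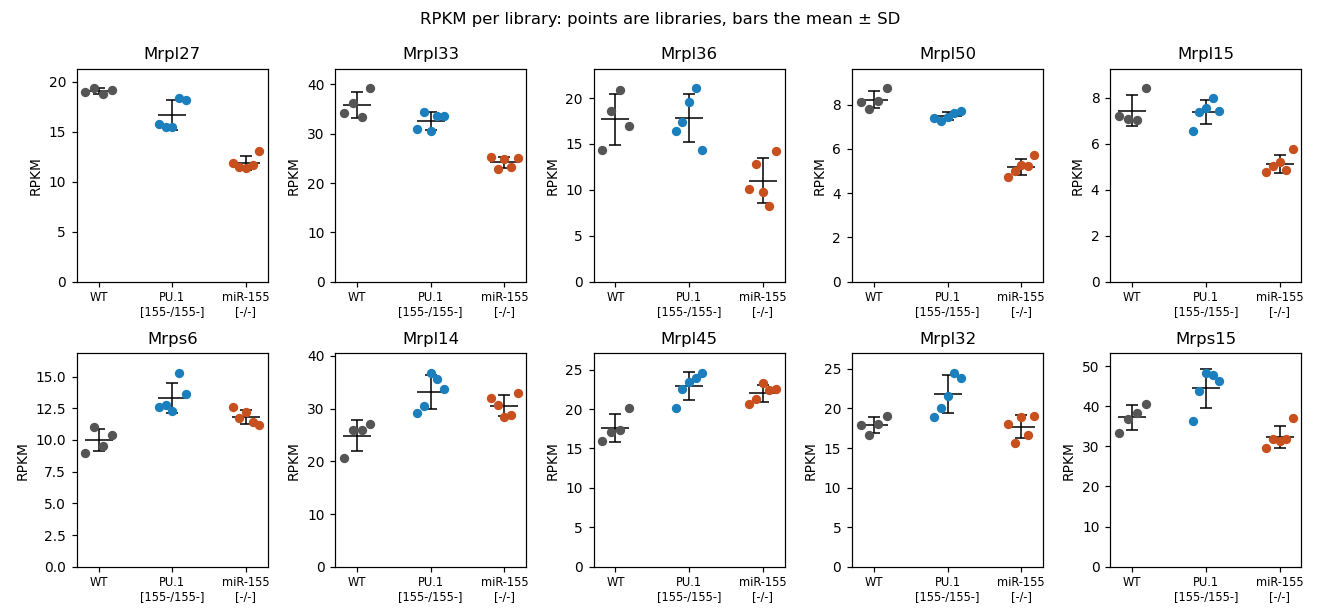
RPKM in each library (points) with the mean and SD of each genotype (bars) for 5 genes that fell in miR-155[-/-] (top) and for Mrps6, Mrpl14, Mrpl45, Mrpl32 and Mrps15 (bottom); axes start at 0. Mrpl27 and Mrpl50 separate all 3 genotypes, and Mrps6 and Mrpl14 lie above WT in every mutant library.

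Mrps6, Mrpl14 and Mrpl45 were higher than WT in both mutants. Mrps6, a protein of the small subunit with a bacterial counterpart, stood at 8.97, 11, 9.56 and 10.4 RPKM in WT, 12.6, 12.8, 12.3, 15.3 and 13.6 in PU.1[155-/155-], and 12.6, 11.7, 12.2, 11.4 and 11.2 in miR-155[-/-]. All 10 mutant libraries lay above all 4 WT libraries. The difference was 0.40 ± 0.07 in PU.1[155-/155-] (limma adjusted p = 0.000201) and 0.24 ± 0.07 in miR-155[-/-] (limma adjusted p = 0.00546). Between the mutants it was -0.17 ± 0.06 (limma adjusted p = 0.0312), a difference that did not pass when libraries were centred (limma adjusted p = 0.652 with median-of-ratios scaling).

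Mrpl14 lies at the face of the large subunit that meets the small one. It had 20.6, 25.9, 26 and 27.1 RPKM in WT, 29.2, 30.6, 36.8, 35.7 and 33.7 in PU.1[155-/155-], and 32.0, 30.7, 28.5, 28.8 and 33.0 in miR-155[-/-], again with no overlap between WT and either mutant. It rose by 0.41 ± 0.08 in PU.1[155-/155-] (limma adjusted p = 0.000899) and by 0.30 ± 0.08 in miR-155[-/-] (limma adjusted p = 0.00392). Mrpl45, a mitochondria-specific protein near the exit of the nascent chain, had 15.9, 17.1, 17.3 and 20.1 RPKM in WT, 20.1, 22.6, 23.4, 24 and 24.6 in PU.1[155-/155-], and 20.7, 21.3, 23.3, 22.4 and 22.6 in miR-155[-/-]. The highest WT library met the lowest PU.1[155-/155-] library, and all miR-155[-/-] libraries lay above WT. Its differences were 0.37 ± 0.07 (limma adjusted p = 0.000485) and 0.32 ± 0.07 (limma adjusted p = 0.000554).

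The spans of 16 of the 76 genes overlap that of another gene in the table, among them those of Mrps6 and Mrpl14. Slc5a3, a myo-inositol transporter whose span lies within that of Mrps6 on the same strand, went from 1.07 ± 0.0702 RPKM in WT to 1.61 ± 0.191 in PU.1[155-/155-] and 2.83 ± 0.318 in miR-155[-/-], differences of 0.42 and 1.08. Tmem63b, a membrane protein whose span overlaps the start of Mrpl14 on the opposite strand, went from 5.66 ± 0.512 to 8.34 ± 0.828 and 10.6 ± 0.287 RPKM, differences of 0.52 and 0.85. In both pairs the partner was highest in miR-155[-/-], whereas Mrps6 and Mrpl14 had their higher mean in PU.1[155-/155-]. The strand setting of the counting is not given, so reads from overlapping stretches cannot be told apart. No other gene of the table overlaps Mrpl45.

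Mrpl13 and Mrpl1 were higher in miR-155[-/-] than in WT and did not pass in PU.1[155-/155-]. Mrpl13 went from 15.1 ± 0.769 RPKM in WT to 17.2 ± 1.02, a difference of 0.17 ± 0.06 (limma adjusted p = 0.0108), and the WT and mutant libraries overlapped through WT replicate 4 at 16.3 RPKM. Mrpl1, which forms the stalk at the tRNA exit side, went from 2.54 ± 0.0924 to 2.95 ± 0.292 RPKM, a difference of 0.18 ± 0.07 (limma adjusted p = 0.0309). That call was lost without WT replicate 1 or 2 or miR-155[-/-] replicate 3, 4 or 5, with quantile normalization and without the filter (limma adjusted p from 0.0505 to 0.0840).

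In PU.1[155-/155-] B cells the group stayed close to WT. Of the 74 tested genes 7 were higher (9.46%, against 23.7% of all tested genes) and 1, Mrpl27, was lower (1.35%, against 4.03%). The median difference was 0.04 against 0.08 over all tested genes, and 44 of the 74 differences were positive. The sign of that median depended on single libraries. Without PU.1[155-/155-] replicate 4 it was -0.01 against 0.05 over all genes, with 35 differences positive. Without WT replicate 1 it was -0.01 against 0.05, with 36 positive, and without PU.1[155-/155-] replicate 1 it was 0.07 against 0.10, with 52 positive. Beside Mrps6, Mrpl14 and Mrpl45, the genes that rose were Mrpl32, Mrps15, Mrps16 and Mrpl9.

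Mrpl32, a large subunit protein that is cleaved on import by the m-AAA protease before it joins the ribosome, had 17.9, 16.6, 18 and 19.0 RPKM in WT and 18.9, 20.1, 21.6, 24.5 and 23.9 in PU.1[155-/155-]. The lowest mutant library lay just below the highest WT one, and the difference was 0.27 ± 0.08 (limma adjusted p = 0.0120). In miR-155[-/-] it had 18, 15.6, 18.9, 16.7 and 19.1 RPKM, a difference from WT of -0.02 ± 0.08. Mrps15 was higher than WT in one mutant and lower in the other, at 37.2 ± 3.03 RPKM in WT, 44.5 ± 4.84 in PU.1[155-/155-] (0.25 ± 0.08, limma adjusted p = 0.0286) and 32.3 ± 2.80 in miR-155[-/-] (-0.20 ± 0.08, limma adjusted p = 0.0383). The rise was lost without WT replicate 1 or 2, PU.1[155-/155-] replicate 3, 4 or 5 or the filter (limma adjusted p from 0.0607 to 0.112), and the fall without WT replicate 2, 3 or 4 or miR-155[-/-] replicate 1, 2, 3 or 4 (limma adjusted p from 0.0589 to 0.128) or without the filter (0.0708). The fall shrank to -0.07 with quantile normalization (limma adjusted p = 0.211) and to -0.04 with GC and length trends removed (limma adjusted p = 0.511). The difference between the mutants, -0.45 ± 0.08, passed in all 25 settings compared for single genes (limma adjusted p = 5.37e-05 as deposited).

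Mrps16 went from 39.6 ± 2.52 RPKM in WT to 45.9 ± 3.22 in PU.1[155-/155-], a difference of 0.21 ± 0.06 (limma adjusted p = 0.0176) with no overlap between the libraries. The call was lost without WT replicate 1 or 2 (limma adjusted p between 0.0508 and 0.0739). Mrpl9 went from 15 to 17.3 RPKM, a difference of 0.20 ± 0.06 (limma adjusted p = 0.0115). Its libraries did not overlap but came close, at 16 RPKM in WT replicate 4 and 16.3 in PU.1[155-/155-] replicates 1 and 3. The call held in 21 of 25 settings, with limma adjusted p up to 0.0908. It was lost with median-of-ratios scaling, quantile normalization, equal RPKM sums and the GC trend removed. With both the GC and length trends removed it held.

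In the direct comparison of the mutants many of these genes were lower in miR-155[-/-]. Against PU.1[155-/155-], 46 of the 74 genes were lower in miR-155[-/-] (62.2%, against 46.4% of all tested genes) and 0 were higher in limma (0%, against 17.9%), a count that was 9 with median-of-ratios scaling. The median difference was -0.22 against -0.13 over all tested genes, 68 of the 74 differences were negative, and the range was -0.68 to 0.11. The largest falls were in Mrpl36 (-0.68 ± 0.13), Mrps36 (-0.52 ± 0.12), Mrpl17 (-0.50 ± 0.07), Mrps23 (-0.50 ± 0.08), Mrpl50 (-0.49 ± 0.05) and Mrpl15 (-0.49 ± 0.06). Mrps36 is also known as a component of the oxoglutarate dehydrogenase complex of the citric acid cycle. Of the 37 genes lower than WT in miR-155[-/-], 34 were also lower than in PU.1[155-/155-]. The exceptions were Mrpl3, Mrps33 and Mrps5. Both contrasts use the same miR-155[-/-] libraries, so part of this overlap is built in, and it was not counted over all tested genes. A further 11 genes, among them Mrpl10, Mrpl30, Mrpl32, Mrps16 and Mrps30, were lower only against PU.1[155-/155-], and for them a difference between the 2 contrasts was not tested.

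This direct comparison depends on how libraries are put on 1 scale. Over all genes, median-of-ratios scaling moved the median difference between the mutants from -0.13 to 0.00, a shift above 0.1, and the calls among all tested genes from 1725 higher and 4467 lower to 3033 and 3013. Relative to the median of all genes, the median of the mitochondrial ribosomal protein genes was -0.09 as deposited and -0.09 after that scaling, with 31 genes lower (41.9%, against 31.3%) and 9 higher (12.2%, against 31.5%). With quantile normalization 22 were lower (29.7%, against 33.4%) and 8 higher (10.8%, against 29.4%). In PU.1[155-/155-] against WT, median-of-ratios scaling turned the sign of the median, to -0.05 against -0.01 over all genes, with 14 genes lower (18.9%, against 15.8%) and 6 higher (8.11%, against 17.4%). Among the genes lower there were Mrpl50, Mrpl33, Mrpl20, Mrps21 and Mrpl3. In miR-155[-/-] against WT the counts moved little, to 36 lower (48.6%, against 34.0%) and 7 higher (9.46%, against 34.1%), and the median relative to all genes was -0.15 both as deposited and after scaling.

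Transcript length and GC content differ between genes and can follow a library's quality, so each library's smooth trend on them was also removed, an alternative chosen after the data were seen. The mitochondrial ribosomal protein genes are short, with a median transcript of 1288 nt against 2951 nt over all tested genes with one, and 47 of the 73 with a transcript fall in the shortest quintile of all genes. In that quintile, genes of all kinds had a median difference of -0.14 between miR-155[-/-] and WT, with 44.6% lower and 18.2% higher. In the longest quintile the median was 0.04, with 23.9% lower and 37.0% higher. With the trend on GC content removed, 37 of 73 genes were lower in miR-155[-/-] than in WT (50.7%, against 36.4%) and 7 higher (9.59%, against 35.9%). With the trends on GC content and length removed, 30 were lower (41.1%, against 36.0%) and 11 higher (15.1%, against 35.9%), and the median was -0.08 against 0.00 over all genes. Between the mutants that last setting left 21 lower (28.8%, against 33.9%) and 15 higher (20.5%, against 33.2%).

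**Figure D5:**
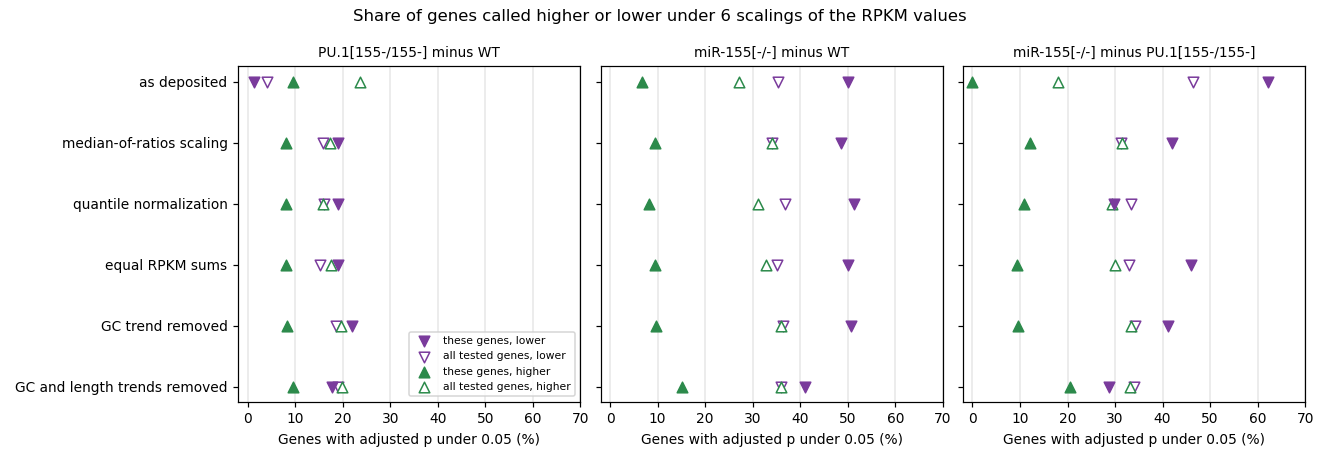
Percent of genes higher (upward triangles) or lower (downward triangles) at an adjusted p under 0.05 in limma, for the mitochondrial ribosomal protein genes (filled) and all tested genes (open), under 6 ways of scaling the RPKM values. In miR-155[-/-] minus WT the filled downward triangles lie between 41.1% and 51.4%, and the open ones between 34.0% and 36.9%.

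Single genes differed in how their calls held. Of the 37 genes lower in miR-155[-/-] than in WT, 29 stayed lower in each of the alternative settings in which they were tested, among them Mrpl36, Mrpl27, Mrpl50, Mrpl33, Mrpl20, Mrps21, Mrpl15, Mrps23, Mrpl17, Mrps25 and Mrpl12. The 8 that did not were Mrpl21, Mrpl44, Mrpl55, Mrps5, Mrps15, Mrps17, Mrps33 and Mrps36. Of the 5 genes higher, Mrpl13, Mrpl14, Mrpl45 and Mrps6 stayed so. Of the 7 genes higher in PU.1[155-/155-], Mrpl14, Mrpl32, Mrpl45 and Mrps6 stayed so. Of the 46 genes lower in miR-155[-/-] than in PU.1[155-/155-], 19 stayed lower.

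Counted by libraries that do not overlap, 18 of the 74 genes lay lower in every miR-155[-/-] library than in every WT library (24.3%, against 24.9% of all tested genes) and 4 higher (5.41%, against 23.5%). Without miR-155[-/-] replicate 5 39 genes lay lower (52.7%, against 34.3%), and without WT replicate 1 27 (36.5%, against 32.7%). In limma, leaving out miR-155[-/-] replicate 5 gave 44 of the 74 genes lower than WT (59.5%, against 38.3% of all tested genes). Against PU.1[155-/155-], 17 genes lay lower in every library (23.0%, against 29.7%), 43 without miR-155[-/-] replicate 5 (58.1%, against 40.9%) and 26 without PU.1[155-/155-] replicate 1 (35.1%, against 37.2%). For PU.1[155-/155-] against WT, 4 genes lay higher without overlap (5.41%, against 18.4%), namely Mrpl14, Mrpl9, Mrps16 and Mrps6, and 2 lower (2.70%, against 3.76%), namely Mrpl27 and Mrpl50. Without PU.1[155-/155-] replicate 1, 9 lay higher (12.2%, against 27.3%), and without WT replicate 4 also 9 (12.2%, against 25.7%).

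Genes of both subunits were among those lower in miR-155[-/-], to be read against 35.3% lower and 27.2% higher over all tested genes. Of 16 tested small subunit proteins with a bacterial counterpart, 9 were lower than WT (56.2%) and 1, Mrps6, was higher (6.25%), with a median of -0.20. Of 10 small subunit proteins specific to mitochondria, 4 were lower (Mrps23, Mrps25, Mrps33 and Mrps34), a share of 40.0% near that of all genes, with a median of -0.18. Of 28 large subunit proteins with a bacterial counterpart, 14 were lower (50%) and 3 higher (10.7%), with a median of -0.19, and of 17 specific to mitochondria 9 were lower (52.9%) and 1, Mrpl45, was higher (5.88%), with a median of -0.21. In PU.1[155-/155-] 3 (18.8%), 0 (0%), 3 (10.7%) and 1 (5.88%) genes of these groups rose, in the same order, against 23.7% of all tested genes.

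Mrpl10, Mrpl11 and Mrpl12 are the proteins of the stalk that recruits translation factors, and they moved unequally. Mrpl12 had 27.3, 34.4, 34.3 and 34.8 RPKM in WT and 24.6, 26, 24.3, 20.9 and 31.1 in miR-155[-/-], overlapping through WT replicate 1 and miR-155[-/-] replicate 5. It fell by 0.37 ± 0.10 (limma adjusted p = 0.00320), and Mrpl11 fell by 0.34 ± 0.09 (limma adjusted p = 0.00179), from 19.0 ± 1.94 to 14.9 ± 1.56 RPKM. Mrpl10 went from 19.2 ± 1.11 to 17.7 ± 1.26 RPKM, a difference of -0.11 ± 0.07 that did not pass (limma adjusted p = 0.156).

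Mrps18a, Mrps18b and Mrps18c are paralogs, of which Mrps18a is placed in the large subunit. None of the 3 passed in any comparison as deposited. Their means in WT, PU.1[155-/155-] and miR-155[-/-] were 16.1, 17.3 and 17.3 RPKM for Mrps18a, 15.3, 15.7 and 14.9 for Mrps18b, and 13.1, 12.1 and 12 for Mrps18c. Under each scaling that centres the libraries Mrps18a was higher in miR-155[-/-] than in WT, by 0.15 with median-of-ratios scaling (limma adjusted p = 0.0196). Mrps30, also a large subunit protein in spite of its name, stood at 12.8, 14.4 and 12.7 RPKM and was lower in miR-155[-/-] than in PU.1[155-/155-] as deposited (-0.17 ± 0.06, limma adjusted p = 0.0252), a call that held in 16 of 25 settings and was lost with median-of-ratios scaling (limma adjusted p = 0.433).

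Mrpl46 and Mrps11 start 52 bases apart on opposite strands of chromosome 7 (NCBIM37), with the end of Mrpl46 at 85927952 and the start of Mrps11 at 85928005. Both fell in miR-155[-/-]. Mrpl46 went from 12.3 ± 0.922 to 9.48 ± 0.941 RPKM (-0.37 ± 0.07, limma adjusted p = 0.000280) and Mrps11 from 9.85 ± 1.89 to 7.12 ± 0.940 RPKM (-0.43 ± 0.11, limma adjusted p = 0.00185). Their values in PU.1[155-/155-] were -0.10 ± 0.07 and -0.03 ± 0.11 from WT.

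Because one of the mutants lacks miR-155, the transcripts were searched for matches to its seed, bases 2 to 8 of the mature microRNA, which RefSeq places on chromosome 16 at chr16:84714143-84714165 (GRCm38.p6, plus strand). The microRNA is shown first, with the seed in capitals, and then the 2 sites of the full 8-base kind and 1 site of the 7-base kind, with the match in capitals. The sites are from GENCODE transcripts on GRCm38, written as the mRNA strand with T for U: in Mrpl17 at chr7:105803235-105803262, in Mrps26 at chr2:130565242-130565269 and in Mrps25 at chr6:92172256-92172282.
mmu-miR-155-5p: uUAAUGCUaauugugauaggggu
Mrpl17: atgagaacccAGCATTAAaggaatttta
Mrps26: aactcagggcAGCATTAAactctgggaa
Mrps25: catattgctgAGCATTAgaaatgtctg

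Of 74 genes with an annotated 3' untranslated region 7 had at least 1 seed match (9.46%, against 14.5% of 9395), and 2 had an 8-base one (2.70%, against 3.52%). Their longest 3' untranslated regions are also short, with a median of 328 nt against 1140 nt. Without miR-155, none of the 7 genes with a match was higher than in WT as deposited, against 27.2% of all tested genes. Of the 74 tested mitochondrial ribosomal protein genes 6.76% were higher, and 7 genes are too few to tell whether the absence is particular to those with a match. Lower were 35.3% of all tested genes and 50% of the 74. Mrpl17 fell by 0.45 ± 0.07, Mrps25 by 0.39 ± 0.06 and Mrpl3 by 0.22 ± 0.07, and the values of Mrpl18, Mrpl32, Mrpl35 and Mrps26 were -0.03, -0.02, 0.05 and -0.12. With the trends on GC content and length removed, Mrpl18 was higher in miR-155[-/-] than in WT, by 0.11 (limma adjusted p = 0.00733). The match in Mrpl17 lies 6605 bases into a 6651-base region of 1 annotated transcript, and whether these cells use that form was not tested.

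The promoters of 66 of the 76 genes could be matched in the RefSeq table (GRCm38.p6), each from 250 bases before to 50 after the start. They were searched on both strands for CCGGAAG, a form of the motif bound by GABPA and related ETS factors, and for GAGGAAGT, a form of that bound by PU.1. AAGATGGC, a form of the motif of YY1, and 1 form of the NRF1 motif were also searched. Each search used 1 fixed string, and other forms of these motifs were not searched. CCGGAAG was in 24 of the 66 (36.4%), against 9.93% of the promoters of 27025 genes and 23.0% of those of 6962 tested genes. AAGATGGC was in 12 (18.2%, against 3.19% and 5.98%), that form of the NRF1 motif in 2, Mrpl32 and Mrpl9 (3.03%, against 1.07% and 2.74%), and GAGGAAGT in 1, Mrps10 (1.52%, against 3.69% and 4.05%). Of the 24 genes with CCGGAAG, 9 were lower in miR-155[-/-] than in WT (37.5%) and 0 higher, with a median of -0.14. Of the 12 with AAGATGGC, 5 were lower (41.7%) and 0 higher, with a median of -0.18. Both shares of lower genes are near the 35.3% of all tested genes. Mrpl32 and Mrpl9 were both higher in PU.1[155-/155-] than in WT, against 23.7% of all tested genes, and the call of Mrpl9 held in 21 of 25 settings. Whether the motif goes with a rise was not tested, and 2 genes are too few to tell.

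Promoters of 2 genes that fell in miR-155[-/-] and of 2 that rose in both mutants are shown 5′ to 3′ on the strand of the gene, with CCGGAAG in capitals. They are Mrpl27 at chr11:94653541-94653840 (plus strand), Mrpl33 at chr5:31613701-31614000 (plus), Mrps6 at chr16:92058086-92058385 (plus) and Mrpl45 at chr11:97315466-97315765 (plus). CCGGAAG, GAGGAAGT and AAGATGGC are not in this window of Mrps6, Mrpl45 or Mrpl14. The promoters shown are examples, and whether CCGGAAG goes with a fall was not tested. Of the 24 genes with it, 37.5% were lower in miR-155[-/-] than in WT, against 50% of the 74 tested genes. Those 74 include the 24 and also genes whose promoter could not be matched. Mrpl36, which had the largest fall, has AAGATGGC and no CCGGAAG in this window. Mrps16, which has CCGGAAG, was not lower in miR-155[-/-] than in WT and rose in the other mutant.
Mrpl27: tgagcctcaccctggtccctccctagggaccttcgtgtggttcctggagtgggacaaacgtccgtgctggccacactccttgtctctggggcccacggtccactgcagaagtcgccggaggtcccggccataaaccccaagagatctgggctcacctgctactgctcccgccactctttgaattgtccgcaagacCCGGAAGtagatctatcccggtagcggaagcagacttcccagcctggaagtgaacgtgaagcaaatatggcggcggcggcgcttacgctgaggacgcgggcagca
Mrpl33: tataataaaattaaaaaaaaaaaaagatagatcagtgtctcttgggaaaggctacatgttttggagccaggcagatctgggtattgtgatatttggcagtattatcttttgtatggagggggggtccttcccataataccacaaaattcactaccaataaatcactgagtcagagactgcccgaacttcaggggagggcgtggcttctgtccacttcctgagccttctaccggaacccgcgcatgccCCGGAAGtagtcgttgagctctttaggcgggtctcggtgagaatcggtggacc
Mrps6: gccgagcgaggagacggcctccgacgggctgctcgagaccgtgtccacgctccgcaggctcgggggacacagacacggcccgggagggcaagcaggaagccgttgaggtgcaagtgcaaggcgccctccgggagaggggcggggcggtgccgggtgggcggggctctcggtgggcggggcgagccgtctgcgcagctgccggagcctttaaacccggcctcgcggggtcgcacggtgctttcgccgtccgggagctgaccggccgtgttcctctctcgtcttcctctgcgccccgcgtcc
Mrpl45: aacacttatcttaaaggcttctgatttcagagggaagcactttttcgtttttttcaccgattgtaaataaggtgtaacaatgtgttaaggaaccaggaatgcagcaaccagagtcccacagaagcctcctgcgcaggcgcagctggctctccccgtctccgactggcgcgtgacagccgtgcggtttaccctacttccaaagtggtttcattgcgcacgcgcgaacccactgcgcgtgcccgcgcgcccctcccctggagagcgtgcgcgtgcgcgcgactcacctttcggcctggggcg

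Other genes of mitochondrial translation were followed as lists, again to be read against 35.3% lower and 27.2% higher over all tested genes. Of 7 structural proteins of the mitochondrial ribosome without an Mrpl or Mrps symbol, 2 were lower (28.6%) and 0 higher in miR-155[-/-] than in WT, with a median of -0.18. Ptcd3, a pentatricopeptide protein of the small subunit, went from 13.1 ± 0.526 RPKM in WT to 11.4 ± 0.903 in PU.1[155-/155-] and 9.01 ± 1.03 in miR-155[-/-], a fall of 0.52 ± 0.07 (limma adjusted p = 5.93e-06). Aurkaip1 fell by 0.18 ± 0.08 (limma adjusted p = 0.0476). Dap3, a GTP-binding protein of the small subunit, had -0.02 ± 0.06.

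Of 22 tested assembly factors and rRNA-modifying enzymes, 9 were lower (40.9%) and 2 higher (9.09%) in miR-155[-/-], with a median of -0.14. That list holds Ddx18, an RNA helicase known from the nucleolus and cytosolic ribosome biogenesis, which fell by 0.79 ± 0.08, and without it 8 of 21 were lower (38.1%). Tfb1m, which methylates the rRNA of the mitochondrial small subunit, fell by 0.37 ± 0.08. Rpusd4, a pseudouridine synthase, rose from 13.4 ± 0.820 in WT to 15.8 ± 0.910 in PU.1[155-/155-] and 18.2 ± 1.2 in miR-155[-/-], and was higher in both mutants. Of 14 translation factors 4 were lower (28.6%) and 1 higher (7.14%). The one that rose was Oxa1l, the inner membrane insertase for newly made mitochondrial proteins, from 15.6 ± 0.381 RPKM to 20.3 ± 2.12 in PU.1[155-/155-] and 22.3 ± 0.611 in miR-155[-/-] (0.50 ± 0.06, limma adjusted p = 1.55e-06). The elongation factor Gfm1 fell by 0.21 ± 0.07.

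Of 19 mitochondrial tRNA synthetases and related enzymes, 9 were lower (47.4%) and 3 higher (15.8%) in miR-155[-/-]. Fars2 rose by 0.50 ± 0.05, from 4.33 ± 0.118 to 6.33 ± 0.316 RPKM, while Yars2 fell by 0.49 ± 0.08 and Hars2 by 0.39 ± 0.06. Of 15 genes of mitochondrial transcription and RNA processing, 9 were lower (60.0%) and 0 higher, with a median of -0.23. The largest were Elac2, which trims the ends of mitochondrial tRNAs (-0.53 ± 0.08), Peo1, the mitochondrial DNA helicase (-0.52 ± 0.07), and Ssbp1, the single-stranded DNA-binding protein of mitochondria (-0.50 ± 0.06). The span of Peo1 overlaps that of Mrpl43, which had -0.07.

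Of 11 tested regulators of mitochondrial biogenesis, 4 were lower (36.4%) and 1 higher (9.09%) in miR-155[-/-] than in WT. Myc went from 30.2 ± 4.37 to 18.5 ± 2.21 RPKM (-0.69 ± 0.10, limma adjusted p = 4.53e-06). Gabpa, the ETS factor whose motif form CCGGAAG is in 24 of the promoters, went from 11.4 ± 0.768 to 9.29 ± 0.731 RPKM (-0.29 ± 0.06, limma adjusted p = 0.000586). Gabpa starts at 84835170 on chromosome 16 (NCBIM37), close to Mrpl39, which ends at 84735987. Nrf1 fell by 0.27 ± 0.07 and Pprc1, a coactivator of the PGC-1 family, by 0.36 ± 0.09. In PU.1[155-/155-] the values of these 4 genes lay between -0.02 and 0.06. Atf5, a transcription factor of the mitochondrial stress response, rose from 15.7 ± 2.68 RPKM in WT to 21.9 ± 3.32 in PU.1[155-/155-] (0.47 ± 0.11, limma adjusted p = 0.00345) and 63.2 ± 6.84 in miR-155[-/-] (1.98 ± 0.11, limma adjusted p = 1.43e-11).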

How the data were processed

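Poly(A) RNA of 14 libraries was sequenced. The authors deposited 1 table of RPKM values per gene and library, with no raw counts used here. Trim Galore and TopHat and the build NCBIM37 are named, with no versions, per the submitters' processing notes. The sources used here do not give the counting tool, its strand setting or the gene lengths. Depth was read from the steps of the RPKM values (31.5 to 52.4 M reads), and 73.2 to 81.6% of values came out within 0.01 of a whole read.

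From the RPKM values, log2(RPKM + 0.5) was fitted for all 14 libraries with limma 3.58.1 in R 4.3.3 (empirical Bayes with an intensity trend), after a filter of 1 RPKM in at least 4 libraries. P-values were adjusted by Benjamini-Hochberg over 9627 rows. The fit was tested on simulated data. Alternatives were other pseudocounts, filters, scalings, fits and the loss of each library. Removal of GC and length trends was added after the data were seen.

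Named were, per comparison and direction, the 6 called genes with the largest change, the 5 highest and 5 lowest by mean RPKM, Mrps18a to Mrps18c, Mrps30, Mrps36, Mrpl10 to Mrpl12, genes with a miR-155 seed match and those that failed the filter, and in other lists the 3 genes of smallest adjusted p. The pair Mrpl46 and Mrps11, overlapping genes, Mrpl39, Myc, Gabpa, Dap3 and other genes outside this rule were chosen after their values were seen. The genes and lists were chosen with earlier results of these data known.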

Additional observations from a re-analysis of the deposited data

Results flagged for a closer look

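In 114 groups of 4 or 5 libraries, 108 for 36 named genes and 6 for 2 sums over all 76 genes, 8 held 1 library that lay apart from the rest by Dixon's critical value, which chance exceeds in about 1 of 20 groups. In miR-155[-/-] replicate 5, 4 genes stood above the other 4 libraries: Mrps18b at 18.9 RPKM against 13.6 to 14.2, Mrpl27 at 13.1 against 11.4 to 11.9, Mrpl17 at 4.45 against 3.67 to 3.86, and Mrps33 at 3.32 against 2.62 to 2.75. In WT replicate 4 Mrpl15 stood at 8.43 RPKM against 7.02 to 7.23, and Mrpl13 at 16.3 against 14.6 to 14.8. In WT replicate 1 Mrpl12 stood at 27.3 RPKM, below the other 3 at 34.3 to 34.8. In PU.1[155-/155-] replicate 1 Mrpl3 stood at 9.67 RPKM, below the other 4 at 10.9 to 11.2.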

How the results depend on the processing

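The 37 genes lower in miR-155[-/-] than in WT became 32 to 44 when 1 library was left out (43.2 to 59.5%, against 30.8 to 38.3% of all tested genes). The 5 higher became 4 to 5 (5.41 to 6.76%, against 24.8 to 27.7%), or 11 with GC and length trends removed (15.1%, against 35.9%). Against PU.1[155-/155-], the 46 lower became 41 to 55 with 1 library left out (55.4 to 74.3%, against 41.1 to 49.8%). They became 22 with quantile normalization (29.7%, against 33.4%), 30 with the GC trend removed (41.1%, against 34.1%) and 21 with GC and length trends removed (28.8%, against 33.9%). The 0 higher became 9 with median-of-ratios scaling (12.2%, against 31.5%), 8 with quantile normalization (10.8%, against 29.4%) and 7 with equal RPKM sums (9.46%, against 30.0%). They became 7 with the GC trend removed (9.59%, against 33.4%) and 15 with GC and length trends removed (20.5%, against 33.2%). In PU.1[155-/155-] against WT, with 1 library left out, the 7 higher became 5 to 11 (6.76 to 14.9%, against 16.9 to 29.0%). The 1 lower became 0 to 3 (0 to 4.05%, against 2.93 to 5.05%). It became 14 with each of the 3 scalings (18.9%, against 15.2 to 16.1%) and 2 with only the 2 genotypes fitted (2.70%, against 4.44%). With the GC trend removed it became 16 (21.9%, against 18.5%), and with GC and length trends removed 13 (17.8%, against 19.0%). With the replicate number as a block, 8 were higher (10.8%, against 24.8%) and 2 lower (2.70%, against 5.39%) in PU.1[155-/155-]. In miR-155[-/-] 5 were higher (6.76%, against 27.4%) and 41 lower (55.4%, against 38.3%). Between the mutants 0 were higher (0%, against 18.8%) and 49 lower (66.2%, against 48.3%). Same-numbered libraries correlated from -0.387 to 0.466 and differently numbered ones from -0.558 to 0.568. The labels state no pairing, and these values cannot decide whether there was one.

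Between the mutants some genes changed sign. All values here passed the threshold but that of Mrps6 (limma adjusted p = 0.291). Mrpl18 had 0.13 with median-of-ratios scaling, 0.18 with quantile normalization, 0.12 with equal sums, 0.14 with the GC trend removed and 0.21 with both trends removed. Mrps18a had 0.13, 0.18, 0.12, 0.17 and 0.25 in the same order. Mrpl35 had 0.11 with median-of-ratios scaling and Mrpl45 0.14 with quantile normalization. With both trends removed Mrpl45 had 0.10, Mrpl14 0.14, Mrps18b 0.16, Mrps18c 0.18 and Mrps6 0.073, and Mrpl18 had 0.11 against WT. The cause was not tested.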

Other observations

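Within genotypes the mitochondrial ribosomal protein genes varied somewhat more than the tested genes as a whole. Their median coefficient of variation was 7.42% in WT, 8.76% in PU.1[155-/155-] and 9.24% in miR-155[-/-], against 6.82%, 7.51% and 7.56% over all tested genes. The most variable was Mrps12, a protein of the decoding centre, with 33.6%, 18.4% and 27.4%. Its difference of -0.34 ± 0.19 between miR-155[-/-] and WT did not pass in limma (adjusted p = 0.128).

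Wdfy1, whose span overlaps that of Mrpl44, rose from 3.30 ± 0.140 RPKM in WT to 11.3 ± 0.727 in PU.1[155-/155-] and 6.78 ± 0.276 in miR-155[-/-], differences of 1.64 and 0.94, while Mrpl44 was lower than WT in miR-155[-/-].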
